A study of Mus musculus with 16 samples.

Results

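The genes described here, apart from Abcd4, encode proteins that build peroxisomes or work in them. They were chosen by name, as 34 symbols matched to the Ensembl identifiers of the deposited count table, and they make up 34 of its 46078 identifiers. Of these, 21 are counted as enzymes and acyl-CoA transporters, and 13 are biogenesis genes of the Pex family. The 21 include Abcd4, a relative of the transporters that acts at the lysosome. All 34 passed the filter on low counts in every comparison.

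Peroxisomes are small organelles that shorten very-long-chain, branched and dicarboxylic fatty acids by beta-oxidation and pass the shortened chains to mitochondria. The first oxidation step makes hydrogen peroxide, which catalase removes, and the same organelle starts the synthesis of ether lipids such as plasmalogens. New peroxisomes need Pex proteins that insert membrane proteins, import enzymes from the cytosol and divide the organelle, and brown fat is known to hold many of them.

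RNA was selected for poly(A) tails and sequenced from brown adipose tissue (BAT), the fat that makes heat, and from white adipose tissue (WAT), which stores fat, taken at the groin. All libraries are labelled as wild-type female C57BL/6 mice, 16 weeks old, bred and weaned at 30 °C and killed after 2 to 3 h without food. BAT_30C and WAT_30C are the mice kept at 30 °C, close to the temperature at which a mouse spends no extra energy on keeping warm. BAT_5C and WAT_5C are mice that went to 18 °C at 10 to 12 weeks of age, stayed there for 2 weeks and then spent 3 weeks at 5 °C. Each group has 4 libraries, and nothing in the labels says that they came from separate mice, so each p-value reflects how libraries of a group vary, which may be technical. The submitters' tissue field reads Inguinal BAT for the brown fat samples.

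Some libraries went against their labels or stood apart. The source field of 4 of the 8 BAT libraries (BAT_30C replicates 3 and 4, BAT_5C replicates 1 and 2) gives the other temperature than the title and the housing field, which set the groups used here. The summed level of 5 brown adipocyte markers ran from 2101 to 4146 CPM in BAT_30C, from 16581 to 18109 in BAT_5C, from 2.88 to 12.3 in WAT_30C and from 38.9 to 663 in WAT_5C. WAT_5C replicate 1, labelled female, held 3 counts of Xist, the transcript of the inactive X chromosome, against 11136 to 88934 in the other 15 libraries. The same library held 17183 counts of 4 Y-linked genes, against at most 45 elsewhere. Its summed CPM was 9.51 for 8 mammary epithelium markers (823 to 881 in the other WAT_5C libraries), 13768 for 4 adipocyte markers (3562 to 5183), 5567 for 6 skeletal muscle markers (7.93 to 180.2) and 50.2 for 5 T and NK cell markers (189 to 224). Counts of members called in comparisons that use WAT are therefore given with and without the library labelled WAT_5C replicate 1, as are the values of the members named in the response of WAT and in the tissue difference at 5 °C. The skeletal muscle list was uneven in the other groups as well. Its sum ran from 84.1 to 8327 CPM in WAT_30C, from 1.92 to 1141 in BAT_30C and from 1.73 to 1720 in BAT_5C. The part of muscle RNA in the results was not tested. Depth ran from 54264023 to 71289020 counts per library. CPM are read counts scaled to a common library size after TMM normalization, which sets libraries to a common level for most genes, and in a bulk tissue fewer cells of a type and less RNA per cell cannot be told apart.

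Promoter windows of the members were read from RefSeq (GRCm38.p6) and run from 250 bases before the annotated start to 50 after it. Of the 34 members, 27 matched a window, and 4 of these had several. One window each of Acox2, the enzyme gene with the largest response to cold, of the thiolase genes Acaa1a and Acaa1b, which responded differently, of Pex16, the biogenesis gene with the largest response, and of Cat are printed 5′ to 3′ in the direction of the gene. Capitals mark, in Acox2, the match to the nuclear receptor element DR1, which is the hexamer AGGTCA repeated with 1 base in between, in Acaa1a, Acaa1b and Pex16 the CCAAT box on either strand, and in Cat both. Acox2 and Pex16 have 2 windows each, and the one that holds a match is shown.
Acox2 (chr14:8258790-8259089, minus strand): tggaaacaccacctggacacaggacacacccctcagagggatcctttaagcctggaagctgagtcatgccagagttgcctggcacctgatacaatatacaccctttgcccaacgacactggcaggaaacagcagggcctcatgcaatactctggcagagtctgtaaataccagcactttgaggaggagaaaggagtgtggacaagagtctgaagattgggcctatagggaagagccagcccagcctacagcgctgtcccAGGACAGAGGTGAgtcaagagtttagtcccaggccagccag
Acaa1a (chr9:119341044-119341343, plus strand): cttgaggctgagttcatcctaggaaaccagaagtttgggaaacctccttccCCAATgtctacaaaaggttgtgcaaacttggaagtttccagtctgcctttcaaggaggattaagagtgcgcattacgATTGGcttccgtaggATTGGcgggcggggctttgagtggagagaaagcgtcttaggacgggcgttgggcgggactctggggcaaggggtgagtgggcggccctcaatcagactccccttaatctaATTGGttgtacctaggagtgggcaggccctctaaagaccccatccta
Acaa1b (chr9:119157044-119157343, minus strand): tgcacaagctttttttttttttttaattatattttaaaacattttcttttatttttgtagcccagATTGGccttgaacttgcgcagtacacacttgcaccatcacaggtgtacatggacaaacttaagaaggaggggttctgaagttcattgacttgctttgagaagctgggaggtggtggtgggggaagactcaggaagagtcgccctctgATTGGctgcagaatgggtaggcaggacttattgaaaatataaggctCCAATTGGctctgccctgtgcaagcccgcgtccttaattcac
Pex16 (chr2:92374426-92374725, plus strand): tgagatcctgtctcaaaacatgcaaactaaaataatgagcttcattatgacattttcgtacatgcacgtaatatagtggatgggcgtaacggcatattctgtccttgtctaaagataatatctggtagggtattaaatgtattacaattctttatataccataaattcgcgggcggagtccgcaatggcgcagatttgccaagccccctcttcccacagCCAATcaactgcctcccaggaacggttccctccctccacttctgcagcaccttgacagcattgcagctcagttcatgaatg
Cat (chr2:103485104-103485403, minus strand): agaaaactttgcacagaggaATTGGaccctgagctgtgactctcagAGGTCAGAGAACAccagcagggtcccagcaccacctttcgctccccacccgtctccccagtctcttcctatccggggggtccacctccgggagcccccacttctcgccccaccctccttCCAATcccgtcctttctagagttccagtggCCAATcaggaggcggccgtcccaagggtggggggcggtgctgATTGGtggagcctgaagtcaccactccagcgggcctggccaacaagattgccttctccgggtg
Both strands were searched. With up to 2 mismatches, DR1 was found in 3.86% of 32851 windows and in those of 2 members, Acox2 and Cat; with 1 or 0 mismatches, no member window held it. The hexamer AGGTCA alone, which forms part of DR1, stood in 16.3% of windows and in those of Cat, Pex11g, Phyh and Scp2. The cAMP response element TGACGTCA stood in 1.79% of windows and in those of Pex11g and Pex13. CCAAT stood in 37.4% of windows and in those of 13 members. A match describes letters and is not a measured site.

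In BAT, cold raised most of these transcripts. A gene is called here when its p, adjusted by Benjamini and Hochberg over all 16213 genes tested with edgeR's quasi-likelihood test, lay below 0.05. Of the 34 members, 22 rose and 5 fell in BAT_5C against BAT_30C, where 29.2% of all genes tested rose and 30.3% fell. Among the 21 enzymes and transporters 12 rose and 5 fell, and among the 13 Pex genes 10 rose and none fell. The median log2 fold change was 0.48 for the enzymes and transporters and 0.40 for the Pex genes, against -0.053 for all genes tested. The 22 that rose were at a higher CPM in every BAT_5C library than in any BAT_30C library, as were 27.6% of all genes tested, and the 5 that fell were below, as were 27.6%. TMM scaling bears on these counts. With library totals alone the median of all genes moved to -0.43, and 15 members rose and 11 fell, where 14.3% of all genes rose and 54.5% fell.

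Acyl-CoA import differed within one transporter family. Abcd3 encodes a peroxisomal carrier of branched-chain and dicarboxylic acyl-CoAs. It measured 186, 289.7, 197 and 258 CPM in BAT_30C and 736, 678, 692 and 689 CPM in BAT_5C, and rose by 1.59 ± 0.13 (log2, SE; adjusted p = 7.69e-06), which is 3-fold. Abcd2 encodes a carrier of very-long-chain acyl-CoAs. It measured 137, 104, 92.5 and 91 CPM in BAT_30C and 73.8, 37.1, 45.4 and 33.8 CPM in BAT_5C, and fell by 1.16 ± 0.24 (adjusted p = 0.00233). The CPM of these genes did not overlap between temperatures, and they moved in opposite directions. The ratio of Abcd3 to Abcd2 CPM ran from 1.36 to 2.84 in BAT_30C and from 9.96 to 20.4 in BAT_5C. Abcd4, a relative that acts at the lysosome in the handling of cobalamin, rose by 0.77 ± 0.057.

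Of 10 beta-oxidation genes, 6 rose, 1 fell and 3 were not called. Acox2 encodes an oxidase that opens beta-oxidation of bile acid intermediates. It measured 0.406, 0.37, 0.162 and 0.391 CPM in BAT_30C and 5.32, 6.37, 5.18 and 7.44 CPM in BAT_5C, a rise of 4.18 ± 0.28 (adjusted p = 1.8e-06) or 18.2-fold. It had the largest fold change of the members and yet the lowest level per kilobase of exon in BAT_5C, at 1.64 CPM per kb. Acox3, the oxidase for pristanoyl-CoA, measured 111, 129, 117 and 118 CPM in BAT_30C and 98.1, 108, 108 and 102 in BAT_5C. It fell by 0.19 ± 0.058 (adjusted p = 0.0173), and leaving out any of BAT_30C replicates 2, 3 and 4 or BAT_5C replicate 1 ended that call, with adjusted p from 0.0541 to 0.098.

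The middle steps are carried by a pair of bifunctional enzymes. Hsd17b4, which serves branched chains and bile acid intermediates, ran from 264 to 350.1 CPM in BAT_30C and from 629 to 707 in BAT_5C and rose by 1.14 ± 0.088. Ehhadh, which serves straight and dicarboxylic chains, measured 41.5, 407, 268 and 316 CPM in BAT_30C and 380.1, 443, 302 and 311 in BAT_5C. BAT_30C replicate 1 was the low library, the groups overlapped, and the gene was not called (0.48 ± 0.51, adjusted p = 0.444).

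The thiolase genes of the last step gave different results. Acaa1b measured 12.1, 10.9, 11.9 and 10.6 CPM in BAT_30C and 52.8, 45.7, 45.3 and 32.1 in BAT_5C, and rose by 1.95 ± 0.14 (adjusted p = 2.11e-06) or 3.88-fold. Acaa1a measured 159.5, 165, 173 and 155 CPM in BAT_30C and 171, 156, 154 and 151 in BAT_5C, with no call (-0.047 ± 0.061, adjusted p = 0.536). The ratio of Acaa1b to Acaa1a CPM ran from 0.0658 to 0.0757 in BAT_30C and from 0.213 to 0.309 in BAT_5C, without overlap. These paralogs share sequence. Of the 50-base windows of Acaa1b transcripts 30.5% also occur in Acaa1a, and 12.4% of those of Acaa1a occur in Acaa1b, so how reads were shared out between them is uncertain. Scp2, which encodes a branched-chain thiolase and a sterol carrier, measured 711, 809.9, 764 and 728 CPM in BAT_30C and 1902, 1850, 1729 and 1892 in BAT_5C. It rose by 1.29 ± 0.066 (adjusted p = 3.83e-07) and had the highest level per kilobase of the members in BAT_5C, at 529.9 CPM per kb; 29.7% of its windows also occur in other genes, among them the pseudogene Scp2-ps2.

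The auxiliary enzymes split. Amacr, the racemase that readies branched chains for oxidation, measured 30, 34.2, 29.7 and 29.7 CPM in BAT_30C and 58.4, 58, 58.7 and 62 in BAT_5C, a rise of 0.94 ± 0.063. Decr2, the dienoyl-CoA reductase for unsaturated chains, rose by 0.40 ± 0.10. Pecr encodes an enoyl-CoA reductase linked to chain elongation. It measured 28.3, 28.2, 25.2 and 25.7 CPM in BAT_30C and 29.5, 26.1, 27.8 and 27.5 in BAT_5C, with overlapping groups and no call (0.048 ± 0.068, adjusted p = 0.568). The carnitine acyltransferases, which prepare shortened chains for export, both rose: Crat by 1.09 ± 0.11 and Crot by 0.42 ± 0.06. Crat measured 584, 852, 733 and 789 CPM in BAT_30C and 1667, 1553, 1468 and 1613 in BAT_5C.

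In alpha-oxidation, which removes a single carbon from phytanic acid, the 2 genes moved apart. Hacl1, the lyase, rose by 0.87 ± 0.065, from 41.1 to 48.8 CPM in BAT_30C to 78.4 to 88.2 in BAT_5C; its exons overlap Btd and Gm49387 over 33.3% of their length. Phyh, the hydroxylase of the first step, measured 799, 901, 849 and 879.7 CPM in BAT_30C and 731, 726, 709 and 798 in BAT_5C, a fall of 0.21 ± 0.066 (adjusted p = 0.0208). Leaving out any of 6 single libraries ended the Phyh call, with adjusted p from 0.0508 to 0.0712; these were BAT_30C replicates 2, 3 and 4 and BAT_5C replicates 1, 2 and 3. Cat, which encodes catalase, measured 617, 653, 559 and 592 CPM in BAT_30C and 1213, 1172, 1206 and 1182 in BAT_5C. Every cold library was above every warm one, and Cat rose by 0.98 ± 0.061 (adjusted p = 1.07e-06).

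Ether lipid synthesis was the enzyme group in which no member rose. Gnpat, the acyltransferase that opens the pathway, measured 583, 648, 590.2 and 668 CPM in BAT_30C and 521, 502, 461 and 519 in BAT_5C and fell by 0.31 ± 0.071 (adjusted p = 0.00401). Far1, the reductase that supplies the fatty alcohol, measured 40.2, 35.9, 36.1 and 36.4 CPM in BAT_30C and 19.8, 25.5, 25.1 and 22.3 in BAT_5C and fell by 0.68 ± 0.083 (adjusted p = 7.98e-05). Agps, the synthase that places the ether bond, ran from 48.3 to 58.5 CPM in BAT_30C and from 52.7 to 56 in BAT_5C and was not called (0.058 ± 0.069, adjusted p = 0.492).

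**Figure D1:**
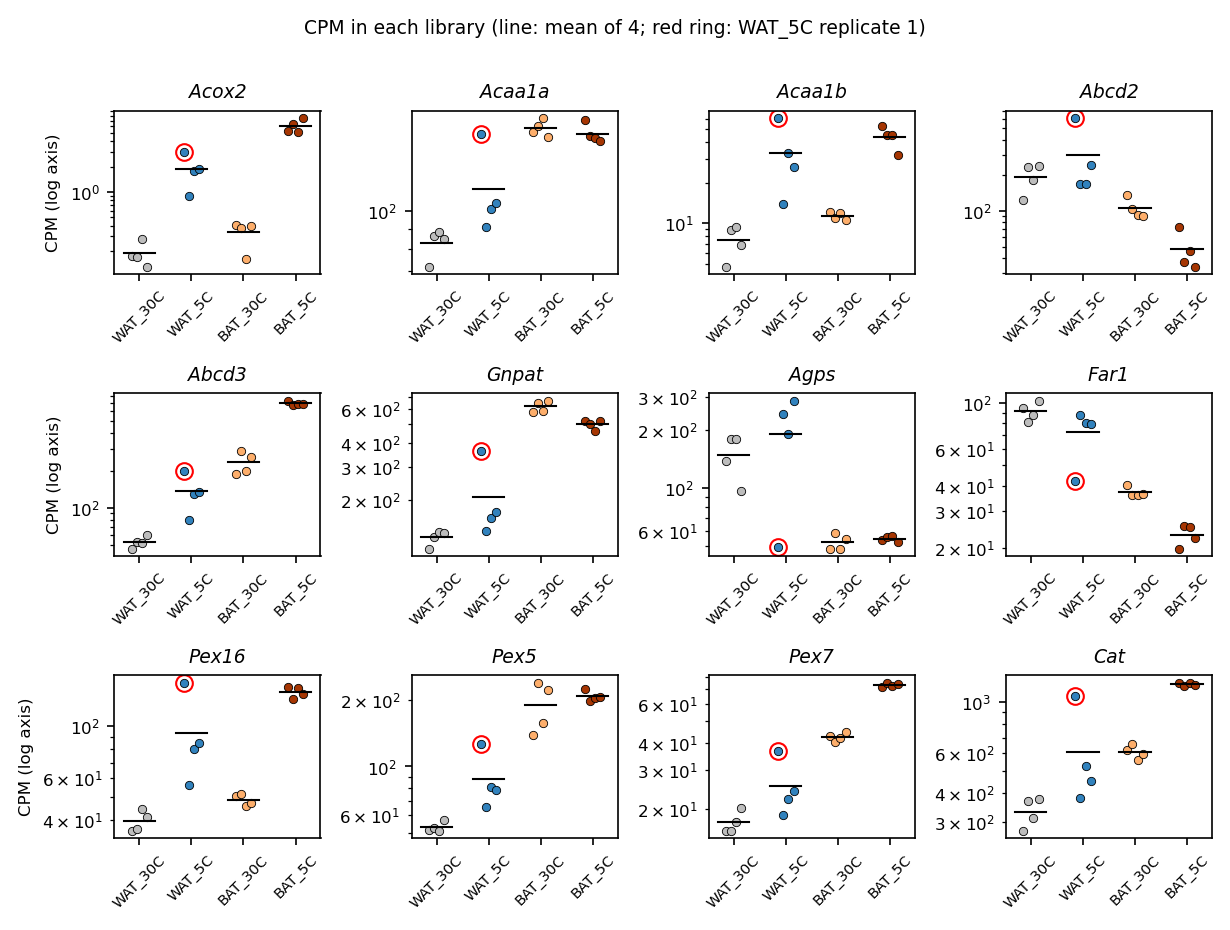
CPM on log axes for 12 members in each of the 16 libraries, by group, with a line at the mean of 4 and a red ring around the library labelled WAT_5C replicate 1. Acox2, Acaa1b, Abcd3, Pex16, Pex7 and Cat lie higher in BAT_5C than in BAT_30C without overlap, Abcd2, Gnpat and Far1 lie lower, and the ringed library is the highest of WAT_5C in 10 of the panels and the lowest for Agps and Far1.

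Among the Pex genes, the 3 that insert membrane proteins all rose. Pex16, a membrane anchor for this route, measured 50.6, 51.2, 45.9 and 46.9 CPM in BAT_30C and 147, 131, 145 and 137 in BAT_5C and rose by 1.53 ± 0.062 (adjusted p = 1.08e-07) or 2.88-fold. Pex19, the soluble receptor for membrane proteins, rose by 0.75 ± 0.075, and Pex3, its docking partner, by 0.47 ± 0.053. Both docking genes for matrix import rose as well, Pex13 by 0.99 ± 0.071 and Pex14 by 1.06 ± 0.1; exons of Pex14 overlap Gm17029 on the opposite strand over 28.3% of their length.

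The import receptors differed. Pex7, the receptor for the amino-terminal targeting signal, measured 42.7, 40.4, 42.1 and 44.5 CPM in BAT_30C and 71.7, 75.1, 72.2 and 73.8 in BAT_5C and rose by 0.79 ± 0.05 (adjusted p = 1.18e-06). Pex5, the receptor for the carboxy-terminal signal, measured 139.5, 240.4, 158 and 222 CPM in BAT_30C and 226, 198, 205 and 208 in BAT_5C. Its warm libraries were spread more widely than its cold ones and overlapped them, and it was not called (0.14 ± 0.16, adjusted p = 0.47).

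The products of another 4 genes return receptors to the cytosol. In the ubiquitin ligase, Pex2 rose by 0.23 ± 0.053 and Pex10 was not called (-0.12 ± 0.075, adjusted p = 0.2). In the export machinery, Pex26, the membrane anchor, rose by 0.29 ± 0.066, and Pex6, the ATPase, was not called (0.0055 ± 0.077, adjusted p = 0.957). The growth and division genes Pex11a and Pex11g rose by 0.40 ± 0.068 and 0.35 ± 0.098. Exons of Pex11g overlap Gm44775 on the opposite strand over 41.1% of their length. Plin1, the lipid droplet gene next to Pex11a in RefSeq order, rose by 0.30 ± 0.078. With library totals the direction of Pex2, Pex6, Pex26, Pex11g, Pex5, Agps and Pecr turned negative, and Crot, Decr2, Pex3 and Pex11a were no longer called.

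Marker lists were summed beside these changes. The summed CPM of the adipocyte list ran from 8231 to 10168 in BAT_30C and from 9887 to 10676 in BAT_5C, with overlap. Its genes moved in different directions, each without overlap. Adipoq (1508 to 1609 in BAT_30C, 779.7 to 1018 in BAT_5C) and Lep (91.3 to 224, 3.04 to 32.3) were lower in BAT_5C. Plin1 (896 to 1137, 1187 to 1239) and Fabp4 (5456 to 7330, 7880 to 8677) were higher. The sum of 3 endothelial genes ran from 892 to 1080 in BAT_30C and from 1023 to 1072 in BAT_5C. The T and NK cell list stood at 3.55 to 5.81 in BAT_30C and 0.692 to 2.03 in BAT_5C, without overlap. The part of these levels in the results was not tested. With only the 4 BAT libraries whose labels all match, 18 members rose and 2 fell, against 20.3% and 16.4% of all genes.

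In WAT, no member was called between 5 and 30 °C when all 8 libraries were used. Of 18975 genes tested, 0.0632% were called, all of them higher. The estimates lay above 0 for 33 of 34 members, with a median log2 difference of 0.78 for the enzymes and transporters and 0.69 for the Pex genes, against -0.014 for all genes. At an unadjusted p under 0.05 there were 25 members, against 18.1% of all genes. DESeq2 called 12, all higher, where it called 3.93% of all genes higher and 1.14% lower. In the fit of all 16 libraries, where the tissues share 1 estimate of the spread, 23 were called, all higher, against 7.39% of all genes higher and 0.76% lower. Every WAT_5C library was above every WAT_30C library for 21 of the 34 (15 of 21 enzymes and transporters, 6 of 13 Pex genes), against 8.23% of all genes tested, and no member was lower throughout, against 5.42%. Without the library labelled WAT_5C replicate 1 these counts were 22 and 0, against 12.1% and 7.1%.

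The spread within WAT_5C was wide. The library labelled WAT_5C replicate 1 was the highest of the 4 for 31 of 34 members and the lowest for the other 3, Agps, Far1 and Pex26. WAT_5C replicate 2 was the lowest for 30. Without replicate 1, 7 members were called, all higher, where 1.84% of 19320 genes tested were higher and 0.274% lower. Median differences were then 0.51 for the enzymes and transporters and 0.44 for the Pex genes. Without WAT_5C replicate 2 instead, 6 members were called, all higher, against 1.37% of all genes, and leaving out any other library left 0. Values with all libraries and without replicate 1 follow for the members called in its absence.

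Acox2 measured 0.173, 0.168, 0.279 and 0.131 CPM in WAT_30C and 2.98, 0.892, 1.79 and 1.85 in WAT_5C. All cold libraries were above all warm ones. The log2 difference was 3.28 ± 0.42 with all libraries (adjusted p = 0.0582) and 2.96 ± 0.35 without replicate 1 (adjusted p = 0.0145). Acaa1b measured 4.76, 8.86, 9.41 and 6.9 CPM in WAT_30C and 60.4, 14, 33.6 and 26.4 in WAT_5C, a difference of 2.13 ± 0.43 (adjusted p = 0.119) or, without replicate 1, of 1.68 ± 0.32 (adjusted p = 0.0454). Its paralog Acaa1a measured 71.9, 86.2, 88.1 and 84.8 CPM in WAT_30C and 158, 91.1, 101 and 105 in WAT_5C, a difference of 0.43 ± 0.18 with all libraries (adjusted p = 0.266) and 0.23 ± 0.092 without replicate 1 (adjusted p = 0.194). The ratio of Acaa1b to Acaa1a CPM ran from 0.0662 to 0.107 in WAT_30C and from 0.153 to 0.382 in WAT_5C, and its highest value without replicate 1 was 0.332.

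Abcd3 measured 46.7, 53, 52 and 60.3 CPM in WAT_30C and 199.9, 80.2, 130.1 and 135 in WAT_5C. The difference was 1.33 ± 0.25 (adjusted p = 0.0975) and 1.08 ± 0.17 without replicate 1 (adjusted p = 0.0275). Ehhadh measured 21.1, 25.4, 23.6 and 32.8 CPM in WAT_30C and 152, 38.1, 85.1 and 68 in WAT_5C, differing by 1.71 ± 0.38 (adjusted p = 0.131) and by 1.27 ± 0.25 without replicate 1 (adjusted p = 0.049). Pecr measured 5.87, 6.31, 6.37 and 7.32 CPM in WAT_30C and 20.5, 9.27, 14.7 and 13.9 in WAT_5C. It differed by 1.14 ± 0.22 (adjusted p = 0.112) and by 0.93 ± 0.16 without replicate 1 (adjusted p = 0.0359). In each of these genes the cold and warm libraries did not overlap.

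Pex16 and Pex5 were the biogenesis genes called without replicate 1. Pex16 measured 35.8, 36.5, 44.3 and 40.9 CPM in WAT_30C and 153, 56.4, 80.1 and 85 in WAT_5C, a difference of 1.22 ± 0.28 (adjusted p = 0.134) and of 0.87 ± 0.14 without that library (adjusted p = 0.0275). Pex5 measured 51.5, 52.3, 50.9 and 57.2 CPM in WAT_30C and 126, 65.2, 80.8 and 78.4 in WAT_5C, a difference of 0.69 ± 0.19 (adjusted p = 0.18) and of 0.46 ± 0.086 without it (adjusted p = 0.0432). Pex7 measured 15.8, 15.8, 17.4 and 20.2 CPM in WAT_30C and 36.7, 18.6, 22 and 24.1 in WAT_5C, where replicate 2 fell inside the warm range. It was not called with all libraries (0.52 ± 0.20, adjusted p = 0.256) or without replicate 1 (0.28 ± 0.12, adjusted p = 0.2).

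Cat measured 274, 370.0, 311 and 377 CPM in WAT_30C and 1058, 382, 524 and 454 in WAT_5C, and the lowest cold library lay just above the highest warm one. Its difference was 0.83 ± 0.32 (adjusted p = 0.251) with all libraries and 0.41 ± 0.15 (adjusted p = 0.163) without replicate 1. Abcd2 depended most on that library. It measured 123, 234, 182 and 242 CPM in WAT_30C and 609.8, 169, 168 and 247 in WAT_5C, with a difference of 0.58 ± 0.45 (adjusted p = 0.471) and, without replicate 1, of -0.041 ± 0.25 (adjusted p = 0.939). Agps measured 138, 181, 181 and 96.9 CPM in WAT_30C and 49.4, 244, 190.3 and 286 in WAT_5C, so that replicate 1 was below all warm libraries and the other 3 above them. Its difference was 0.33 ± 0.47 (adjusted p = 0.705) and 0.65 ± 0.23 without replicate 1 (adjusted p = 0.153). Far1 measured 95, 81.5, 87.4 and 103 CPM in WAT_30C and 42.2, 87.4, 79.9 and 79.3 in WAT_5C and was the member with a negative estimate (-0.37 ± 0.21, adjusted p = 0.356), which was -0.19 ± 0.091 without replicate 1 (adjusted p = 0.257).

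**Figure D2:**
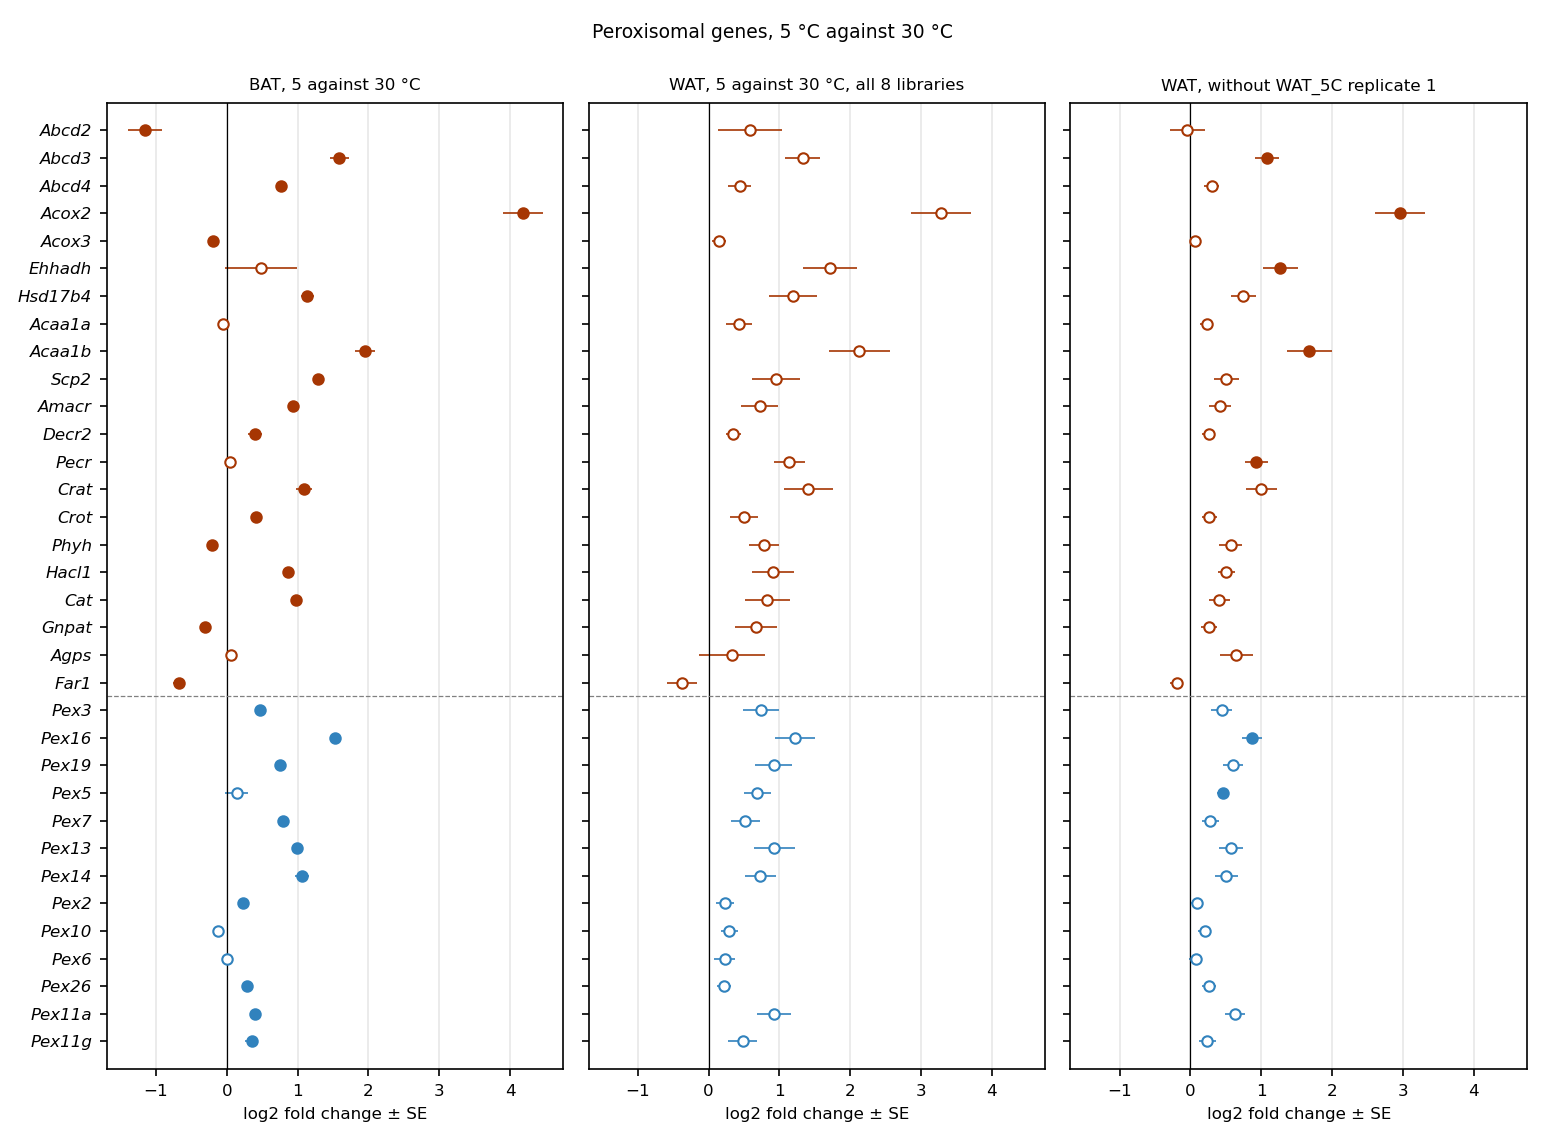
Log2 fold change with its standard error for the 34 members, 5 against 30 °C, in BAT, in WAT with all 8 libraries and in WAT without the library labelled WAT_5C replicate 1; enzymes and transporters in orange-brown above the dashed line, Pex genes in blue, filled points where the adjusted p was below 0.05. BAT shows 22 called rises and 5 called falls, WAT shows none with all libraries and 7 rises without that library; with library totals 7 of the uncalled or small BAT rises turn negative.

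The difference between the tissues' responses was tested as an interaction in all 16 libraries. The response was more positive in WAT than in BAT for 6 members and more negative for none, where 12.5% and 8.34% of 19481 genes tested were called in those directions. These were Abcd2 (1.77 ± 0.54, adjusted p = 0.0307), Pecr (1.13 ± 0.24, adjusted p = 0.00351), Phyh (1.02 ± 0.24, adjusted p = 0.00749), Gnpat (1.02 ± 0.32, adjusted p = 0.0346), Pex10 (0.44 ± 0.13, adjusted p = 0.0302) and Acox3 (0.37 ± 0.12, adjusted p = 0.0369). All 6 fell or were not called in BAT. Phyh measured 82.4, 93.1, 87.9 and 129 CPM in WAT_30C and 241, 134, 155 and 160.4 in WAT_5C, and Gnpat 111, 128, 136 and 135 against 361, 137, 162 and 173. Acox3 measured 60.3, 61.5, 61 and 53.8 CPM in WAT_30C and 78.7, 62.4, 62.7 and 64.5 in WAT_5C. Pex10 measured 22.5, 24, 22.4 and 22.3 CPM in BAT_30C, 23.1, 20.2, 19.3 and 21.2 in BAT_5C, 7.79, 8.05, 8.91 and 8.51 in WAT_30C and 12.1, 8.99, 9.77 and 10.6 in WAT_5C.

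These calls depended on single libraries. Without the library labelled WAT_5C replicate 1, 12 members were called. Abcd2, Pecr, Phyh, Gnpat and Far1 were more positive in WAT (15.6% of all genes), and Scp2 (-0.79), Pex16 (-0.66), Cat (-0.58), Pex14 (-0.57), Amacr (-0.53), Pex7 (-0.51) and Abcd4 (-0.49) more negative (15.7%). Abcd2 was then at 1.11 ± 0.37, Pecr at 0.87 ± 0.17, Phyh at 0.77 ± 0.17, Gnpat at 0.57 ± 0.13 and Far1 at 0.48 ± 0.12. Pex10 (0.31 ± 0.11, adjusted p = 0.0522) and Acox3 (0.24 ± 0.091, adjusted p = 0.0572) were not called. Leaving out BAT_5C replicate 3 or 4 or WAT_30C replicate 1 left 2 calls, and leaving out BAT_30C replicate 2, BAT_5C replicate 2 or WAT_30C replicate 3 left 3, all more positive in WAT, where 9.75% to 10.9% of all genes were called in that direction.

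At 30 °C, most members were higher in BAT than in WAT. Of the 34, 28 were higher and 2 lower, against 34.5% and 35.3% of 19481 genes tested. Among the Pex genes 12 of 13 were higher and Pex16 was not called (0.31 ± 0.21, adjusted p = 0.204), with a median log2 difference of 1.29. Among the enzymes and transporters 16 of 21 were higher, with a median of 1.20, and the median of all genes was -0.033. Every BAT_30C library was above every WAT_30C library for 30 members and below for 2, against 33% and 33.9% of all genes. The library labelled WAT_5C replicate 1 enters the spread of this fit, and without it 29 members were higher and 3 lower, against 33.6% and 39.2%. The calls it added were Pex16 (0.25 ± 0.11, adjusted p = 0.049) and, as lower in BAT_30C, Abcd2 (-0.94 ± 0.26, adjusted p = 0.00398). With library totals the median of all genes moved to -0.88, and 23 members were higher and 5 lower, against 12.9% and 66.1% of all genes; Acox2, Acaa1b, Pex16 and Pex26 then had negative estimates. The temperature and tissue comparisons share libraries, so their counts are not independent.

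Ehhadh differed most between the tissues at 30 °C. It stood at 258 ± 155 CPM (SD, n = 4) in BAT_30C and 25.7 ± 5.05 in WAT_30C, a log2 difference of 3.33 ± 0.54 (adjusted p = 6.52e-05), and the low BAT_30C replicate 1, at 41.5 CPM, was still above the highest WAT_30C library at 32.8. Phyh stood at 857 ± 44 CPM in BAT_30C and 98.2 ± 21.3 in WAT_30C, a difference of 3.13 ± 0.18 (adjusted p = 7.76e-09) or 8.73-fold. Crat measured 81.9, 134, 127 and 116 CPM in WAT_30C and was 2.69 ± 0.29 higher in BAT_30C (adjusted p = 1.16e-06). Gnpat was 2.28 ± 0.24 higher, Amacr, at 5.73, 7.18, 7.14 and 6.96 CPM in WAT_30C, 2.19 ± 0.20 higher, and Abcd3 2.14 ± 0.22 higher.

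The 2 members lower in BAT_30C both serve ether lipids: Agps at -1.51 ± 0.36 (adjusted p = 0.0017) and Far1 at -1.30 ± 0.17 (adjusted p = 9.27e-06). Gnpat, the first enzyme of the same pathway, was higher. The ratio of Agps to Gnpat CPM ran from 0.0808 to 0.0904 in BAT_30C and from 0.717 to 1.41 in WAT_30C. In WAT_5C it was 0.137 in the library labelled replicate 1 and 1.18 to 1.78 in the other 3. For both Agps and Far1, every BAT_30C library was below every WAT_30C library.

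At 5 °C, 30 members were higher in BAT than in WAT and 3 lower, against 31.8% and 40.5% of all genes tested; without the library labelled WAT_5C replicate 1 these were 31 and 3, against 34% and 42.2%. Every BAT_5C library was above every WAT_5C library for 28 members and below for 2, against 28.8% and 32.6% of all genes, and without that library for 30 and 3, against 34.9% and 42.4%. The Pex genes were higher for 13 of 13, with a median of 1.17, and the median of all genes was -0.19. With all libraries Abcd2 had the largest difference. It stood at 47.5 ± 18.2 CPM in BAT_5C and 299 ± 211 in WAT_5C, a log2 difference of -2.65 ± 0.40 (adjusted p = 3.32e-05), and of -2.05 ± 0.28 without that library, where 7 members differed by more. Amacr was 2.38 ± 0.20 higher in BAT_5C, Abcd3 2.36 ± 0.22, Crat 2.34 ± 0.28, Phyh 2.10 ± 0.18 and Ehhadh 2.07 ± 0.51. Without that library Crat had the largest difference, at 2.73 ± 0.20, and Amacr was at 2.66 ± 0.12, Abcd3 at 2.59 ± 0.19, Ehhadh at 2.48 ± 0.53 and Phyh at 2.29 ± 0.14. Amacr measured 17.8, 7.29, 10.6 and 9.92 CPM in WAT_5C and Crat 541, 166, 281 and 259. Agps (-1.82 ± 0.37) and Far1 (-1.64 ± 0.17) were lower in BAT_5C as well, at -2.16 ± 0.18 and -1.84 ± 0.091 without that library. Acaa1b was not called (0.39 ± 0.32, adjusted p = 0.293) unless that library was left out (0.82 ± 0.26, adjusted p = 0.0106). Pex16, called at 0.58 ± 0.21 (adjusted p = 0.0216), was not called without WAT_5C replicate 2, 3 or 4, with adjusted p from 0.0555 to 0.0622. It stayed called when the library labelled WAT_5C replicate 1 or any other was left out. Its estimate ran from 0.40 to 0.91 over the 16 fits that each left out 1 library. With library totals the median of all genes was -1.12 and the counts were 19 higher and 6 lower, against 10.9% and 71.3% of all genes, with negative estimates for Acox3, Acaa1a, Acaa1b, Pex3, Pex16, Pex26 and Pex11g.

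**Figure D3:**
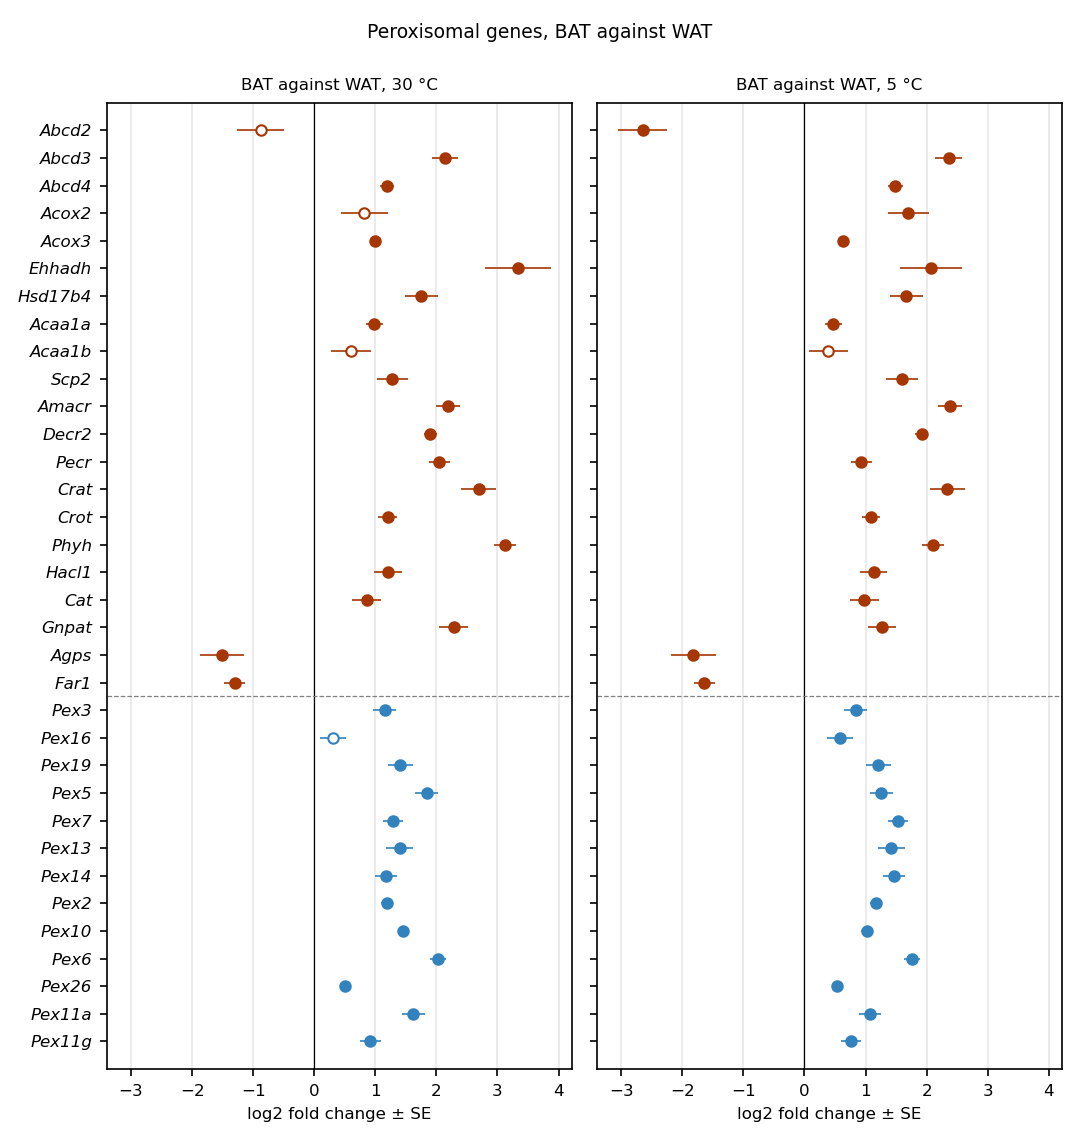
Log2 difference with its standard error for the 34 members, BAT against WAT, at 30 °C on the left and at 5 °C on the right; enzymes and transporters in orange-brown, Pex genes in blue, filled points where the adjusted p was below 0.05. Nearly all points lie above 0, with Agps and Far1 below it in both panels and Abcd2 called below it at 5 °C; with library totals 4 members at 30 °C and 7 at 5 °C turn from positive to negative estimates.

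Cell type markers also differed between the tissues. The adipocyte list summed to 8231 to 10168 CPM in BAT_30C and 2348 to 4199 in WAT_30C, the endothelial list to 892 to 1080 and 318 to 386, the mammary epithelium list to 0.182 to 12.6 and 580.0 to 903, and the T and NK cell list to 3.55 to 5.81 and 247 to 349. The part of these levels in the tissue differences was not tested.

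Enzymes and biogenesis genes were set side by side in each library as the median log2 ratio of the group's members to their own mean in WAT_30C. In WAT_30C both medians lay between -0.20 and 0.16. In BAT_30C the enzymes and transporters were at 1.18 to 1.30 and the Pex genes at 1.26 to 1.42. In BAT_5C they were at 2.09 to 2.19 and 1.90 to 2.05. Such a median can fall on different genes in different libraries. The step from BAT_30C to BAT_5C is therefore not the median fold change given above, which was smaller for both groups. The gap between the medians was not tested. The enzyme median minus the Pex median ran from -0.18 to 0.022 in BAT_30C and from 0.12 to 0.27 in BAT_5C, so the ranges did not overlap, and BAT_30C replicate 3 was the warm library with a gap above 0. In WAT_5C the gap was 0.0036 to 0.068 in replicates 2, 3 and 4 and 0.40 in the library labelled replicate 1, where the enzymes were at 1.64, above every BAT_30C library, and the Pex genes at 1.24, just below the lowest BAT_30C library. Replicate 2 was the lowest WAT_5C library on both medians, at 0.20 and 0.14.

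**Figure D4:**
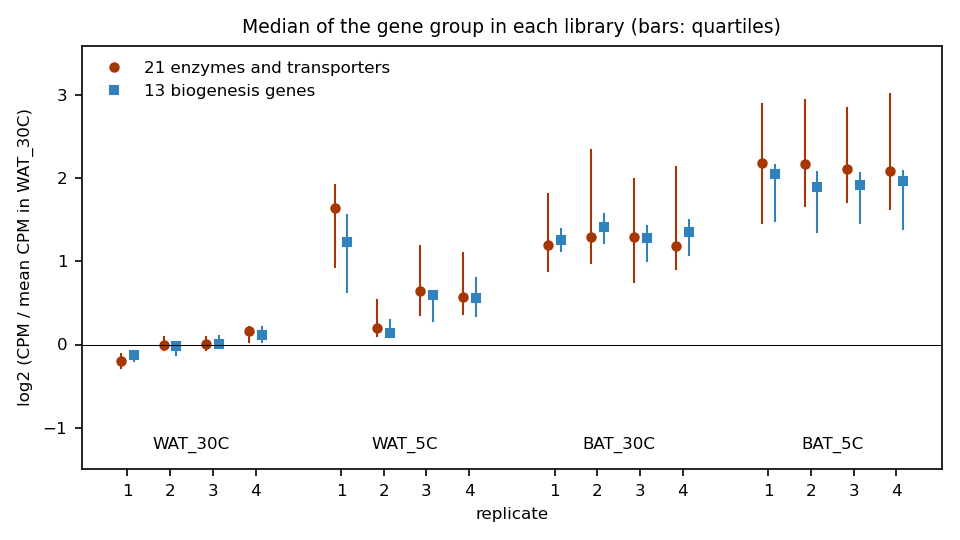
Median over 21 enzymes and transporters (orange-brown circles) and over 13 Pex genes (blue squares) of log2 CPM relative to the gene's mean in WAT_30C, by library, with bars from the lower to the upper quartile of the genes. WAT_30C lies near 0, BAT_30C between 1.18 and 1.42, BAT_5C between 1.90 and 2.19, and in WAT_5C replicate 1 stands above replicates 2 to 4.

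Levels between genes were compared per kilobase of exon, from the mean CPM of each group. Cat, Scp2 and Phyh held the 3 highest places in every group, and Acox2 the lowest of 34. In BAT_30C Phyh was at 453 CPM per kb, Cat at 232 and Scp2 at 217; in BAT_5C Scp2 was at 529.9, Cat at 457 and Phyh at 391. Among the Pex genes Pex6 (68.1) and Pex19 (60.8) led in BAT_30C, and Pex19 (102) and Pex16 (78.8) in BAT_5C, where Pex16 had moved from place 15 to place 10 of 34. Agps was in place 27 in BAT_30C and 12 in WAT_30C, and Abcd2 in place 18 and 5. Differences between neighbouring places were not tested.

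Another 33 genes linked to peroxisomes, listed beside the members, were read in the same fits. They were chosen by name, and not all of their products act only in peroxisomes. In BAT, of 31 tested, 22 rose and 1 fell, against 29.2% and 30.3% of all genes. With library totals 13 rose and 7 fell, against 14.3% and 54.5%. With TMM scaling, the one that fell was Pxmp2, a membrane channel protein (-0.71 ± 0.10, adjusted p = 0.000225). The 4 with the smallest adjusted p were Nudt19 (1.30 ± 0.061), Nudt7 (1.48 ± 0.07) and Nudt12 (1.11 ± 0.053), which encode hydrolases of coenzyme A or nucleotide cofactors, and Mlycd (1.61 ± 0.08), the malonyl-CoA decarboxylase. In WAT none of the 31 tested was called with all libraries. At an unadjusted p under 0.05 there were 21, against 18.1% of all genes. DESeq2 called 10, where it called 3.93% of all genes higher and 1.14% lower. There were 4 that rose without the library labelled WAT_5C replicate 1, against 1.84% of all genes. These were Slc25a17 (0.53 ± 0.086), Nudt7 (1.15 ± 0.19), Ddo (1.11 ± 0.19) and Acad11 (0.90 ± 0.17). In BAT_30C against WAT_30C 26 of 32 were higher and 3 lower, against 34.5% and 35.3% of all genes. Ddo (3.85 ± 0.23), Prdx5 (2.22 ± 0.18), Ech1 (3.37 ± 0.29) and Eci2 (1.81 ± 0.17) had the 4 smallest adjusted p and were higher in BAT_30C. The 3 lower were Far2, Tmem189 and Pipox. These 3 were also the ones lower at 5 °C, where 40.5% of all genes were lower. Far2 encodes a second fatty acyl-CoA reductase, at -0.94 ± 0.18, and Tmem189 the desaturase that completes plasmalogens, at -0.42 ± 0.078; both were named after their values were seen.

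Regulators were read beside them. Ppara, the nuclear receptor that drives many peroxisomal genes in liver, measured 215, 360.3, 250.2 and 371 CPM in BAT_30C and 141, 191, 62 and 129.6 in BAT_5C, a fall of 1.19 ± 0.31 (adjusted p = 0.00787). In WAT it measured 1.66, 2.97, 1.16 and 1.74 CPM at 30 °C and 24.8, 3.2, 13.9 and 7.57 at 5 °C and was not called (2.68 ± 0.61, adjusted p = 0.134). The responses differed by 3.90 ± 0.71 (adjusted p = 0.00141). Without the library labelled WAT_5C replicate 1 these values for Ppara were 2.08 ± 0.48 (adjusted p = 0.0684) and 3.27 ± 0.61 (adjusted p = 0.000987). Ppargc1a, a coactivator of mitochondrial genes, and Prdm16, a regulator of brown fat identity, were not called with cold in BAT (0.56 ± 0.34, adjusted p = 0.18, and 0.53 ± 0.22, adjusted p = 0.0639).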

How the data were processed

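Poly(A)-selected RNA was sequenced in 16 libraries, 4 in each of 4 groups. The authors deposited whole-number counts per gene, per the file headers and values. Reads were handled with Trim Galore and TopHat, per the submitters' processing notes; their versions, the counting tool, its strand setting and the genome build were not given in the sources used. Identifiers were paired with symbols from the reference tables (45143 of 46078), and the 935 unnamed ones were kept in library sizes and tests as genes. Groups follow the titles and the housing field.

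Counts were tested with edgeR 4.0.16 (quasi-likelihood, TMM scaling) in R 4.3.3, after filterByExpr (minimum count 10, minimum total 15), with Benjamini-Hochberg adjustment at 0.05 over all genes tested. Temperature was fitted in BAT and in WAT apart. Tissue differences and the interaction came from a fit of all 16 libraries. DESeq2 1.42.0, other scalings, no filter, a replicate block and leaving out each library were the alternatives. The fitting code was tested on simulated data. Depth ran from 54264023 to 71289020 counts per library, and no pair of libraries agreed within sampling noise. For libraries with equal replicate numbers in different groups, r of deviations ran from -0.456 to 0.287. Between BAT and WAT at the same temperature it ran from -0.238 to 0.287. These values cannot show whether BAT and WAT libraries came from the same mice. The main fits did not pair libraries. The members and lists were chosen with earlier results of these data known. Values of every library are given for up to 6 called members per comparison. These had the largest fold change and at least 1 CPM in the higher group. Such values are also given for Cat, Pex5, Pex7 and the Acaa1 pair. Of the other genes linked to peroxisomes, those with the 4 smallest adjusted p were named for BAT and for the tissue difference between the warm groups. Genes called lower were named there as well. Between the cold groups only the genes called lower were named. For WAT and the interaction, the called genes were named. Other members are described by role, and their library values were chosen after their values were seen. Protein sequences were not used here.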

Additional observations from a re-analysis of the deposited data

Results flagged for a closer look

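Of 136 groups of 4 libraries, 10 held a library whose gap to the nearest other exceeded Dixon's critical share of the group's range; chance flags about 1 in 20 groups. The library labelled WAT_5C replicate 1 was such a library for Gnpat, at 361 CPM against 137 to 173 in the other 3, and for Acox3, at 78.7 CPM against 62.4 to 64.5. In WAT_30C, replicate 4 was low for Acox3 (53.8 CPM against 60.3 to 61.5), and replicate 1 was low for Amacr (5.73 against 6.96 to 7.18) and Pex11a (23.3 against 29.9 to 31). In BAT_30C, replicate 3 was low for Acox2 (0.162 CPM against 0.37 to 0.406), replicate 2 was high for Amacr (34.2 against 29.7 to 30) and Pex10 (24 against 22.3 to 22.5), and replicate 1 was high for Far1 (40.2 against 35.9 to 36.4). In BAT_5C, replicate 3 was low for Pex3, at 69.6 CPM against 73.6 in the other 3.

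The response to cold differed between WAT and BAT, by edgeR's test of the interaction, for 6 members, all more positive in WAT. Of all genes tested, 12.5% were called in that direction and 8.34% in the other. The calls were not all in 1 direction without the library labelled WAT_5C replicate 1. Abcd2, Pecr, Phyh, Gnpat and Far1 were then more positive in WAT, against 15.6% of all genes. Scp2, Pex16, Cat, Pex14, Amacr, Pex7 and Abcd4 were more negative, against 15.7%. Leaving out 1 of the 16 libraries at a time ended the calls of Gnpat and Acox3 in 10 fits each. It ended that of Pex10 in 8 and that of Abcd2 in 6. The WAT response minus the BAT response on the log2 scale was 1.77 for Abcd2 (adjusted p = 0.0307), 1.13 for Pecr (adjusted p = 0.00351), 1.02 for Phyh (adjusted p = 0.00749), 1.02 for Gnpat (adjusted p = 0.0346), 0.44 for Pex10 (adjusted p = 0.0302) and 0.37 for Acox3 (adjusted p = 0.0369).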

How the results depend on the processing

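The count of members called between 5 and 30 °C in BAT, both directions together, stayed within 1.5 times of 27 under every alternative run (20 to 27). Its split moved with library totals, to fewer rises and more falls, as given above. In WAT, 0 members were called; library totals gave 2, no filter 1, DESeq2 12, the fit of all 16 libraries 23, and leaving out 1 library 0 to 7. The interaction gave 6 calls, 2 at an adjusted p of 0.01, and 2 to 12 when 1 library was left out. The tissue counts, both directions together, moved by less than 1.5 times under every alternative run. Their split moved with library totals, from 28 higher and 2 lower to 23 and 5 at 30 °C and from 30 and 3 to 19 and 6 at 5 °C. With the replicate block the counts were 27 in BAT, 0 in WAT, 31 between tissues at 30 °C, 33 at 5 °C and 4 for the interaction. The cause of these shifts was not tested.

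Some estimates changed sign. With library totals, the BAT response was -0.33 for Pecr, -0.32 for Agps, -0.23 for Pex5, -0.15 for Pex2, -0.38 for Pex6, -0.093 for Pex26 and -0.032 for Pex11g. The WAT response was then -0.13 for Acox3, -0.06 for Pex2, -0.066 for Pex6 and -0.032 for Pex26. The tissue difference at 30 °C was -0.023 for Acox2, -0.24 for Acaa1b, -0.54 for Pex16 and -0.36 for Pex26. At 5 °C it was -0.29 for Acox3, -0.42 for Acaa1a, -0.44 for Acaa1b, -0.025 for Pex3, -0.28 for Pex16, -0.42 for Pex26 and -0.12 for Pex11g. With the 4 BAT libraries whose labels match, Pecr was at -0.028. Leaving out 1 library also turned signs: Acaa1a ran from -0.087 to 0.0076 and Pex6 from -0.042 to 0.06 in BAT, Abcd2 from -0.041 (without the library labelled WAT_5C replicate 1) to 0.79 in WAT, and Cat from -0.58 to 0.048 (without WAT_5C replicate 2) in the interaction. Depth does not limit the members except Acox2, which is at or under 0.406 CPM in every 30 °C library.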

Other observations

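Among the other genes linked to peroxisomes, 32 were tested for the interaction. With all libraries it was called higher in WAT for Ddo (1.40) and Pxmp2 (1.12), against 12.5% of all genes. It was called lower for Fis1 (-0.67), Acot8 (-0.81) and Slc25a17 (-0.76), against 8.34% of all genes. Without the library labelled WAT_5C replicate 1, 2 were higher, Ddo (1.06) and Pxmp2 (0.60), and 8 were lower, against 15.6% and 15.7% of all genes. The 8 were Fis1 (-0.77), Acot8 (-0.83), Slc25a17 (-1.01), Mlycd (-1.17), Nudt19 (-0.95), Acbd5 (-0.63), Mff (-0.30) and Dnm1l (-0.28). Ddo encodes D-aspartate oxidase, Fis1 a factor in the division of peroxisomes and mitochondria, Acot8 a peroxisomal acyl-CoA thioesterase and Slc25a17 a peroxisomal carrier of cofactors. Pipox, which encodes pipecolic acid oxidase, was lower in BAT than in WAT at 30 °C (-1.04) and at 5 °C (-2.13; -1.10 and -2.14 without that library), and was named after its values were seen.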
